A study of Mus musculus with 2 samples.

Results

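Cd5, Egr1, Egr2, Egr3, Nr4a1, Nr4a3 and Itm2a are genes whose transcripts are widely read as reporters of how strongly a thymocyte is being signaled through its T cell antigen receptor (TCR). The 7 genes were chosen by name, and all were present among the 20282 genes of the count matrix. When a TCR binds self peptide on MHC, the ERK and calcium pathways switch on the zinc finger transcription factors Egr1, Egr2 and Egr3 and the orphan nuclear receptors Nr4a1 (Nur77) and Nr4a3 within a short time, and these transcripts decay soon after the signal ends. Cd5, a surface receptor that dampens TCR signaling, and Itm2a, a membrane protein induced during positive selection, follow the signal over a longer period. In the thymus, most CD4+CD8+ double-positive (DP) cells receive no useful signal, positively selected cells express these genes as they become single-positive (SP), and cells that meet self antigen with high affinity express Nr4a1 and Nr4a3 at their strongest.

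Whole thymus was taken at 6 weeks of age from 2 groups of littermates, 5 mice with floxed Cdc42 and no Cre (Cdc42f/f, here WT) and 5 that also carried CD4Cre (Cdc42f/f CD4Cre, here KO). The cells of the 5 mice of a group were pooled into 1 single-cell library. Both groups therefore shared the floxed allele, and in the KO mice Cre was driven by the CD4 promoter, so that deletion begins around the DP stage and leaves earlier thymocytes and non-T cells with the gene. Cdc42 is a regulator of the actin cytoskeleton, and the comparison asks how its loss in thymocytes alters their transcripts. With 1 library per genotype there was no replicate, no difference had a statistical test, and all values below compare these libraries, not the conditions.

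The matrix held 6115 cells of the WT-labelled and 7568 cells of the KO-labelled library, with 29706197 and 37920214 unique molecular identifiers (UMIs) and a median of 3192 and 3401 UMIs per cell. The libraries shared 17 cell barcodes. The deposited clusters were used, and 4 stages were read from them. The resting DP cells were clusters 0 to 4, with most Rag1, a recombinase of DP cells (3636 WT and 4641 KO cells, median 2823 and 3097 UMIs). Clusters 5 and 9 held most Cd5 (535 and 843 cells, median 3402 and 3775 UMIs), cluster 6 held most Itm2a (479 and 316 cells, median 5714 and 5363 UMIs), and cluster 7 held most Ms4a4b, a gene of mature SP cells (332 and 396 cells, median 6737.5 and 5032 UMIs). The summed level of 7 genes of mature SP cells was 153 and 186 counts per 1000000 UMIs (CPM) in the resting DP clusters and 3393 and 5043 CPM in the Ms4a4b cluster, and that of 9 genes of DP cells was 11685 and 11837 CPM against 1324 and 1689 CPM. Counts of the Cdc42 3′ end did not check the labels, since Cdc42 stood at 358 and 320 CPM in the resting DP clusters and at 447 and 581 CPM in the Ms4a4b cluster. Intervals in brackets are exact 95% intervals and cover counting error only. Those of CPM and of log2 ratios take each UMI as independent. Where the UMIs of a gene gather in few cells, they are too narrow for the sampling of cells. A gene was counted as past the fold when the libraries differed at least 1.5-fold with at least 20 UMIs in both together.

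Gene positions were read from GENCODE vM21 on GRCm38, and that of Egr1 is not reported here. Cd5 lay on chromosome 19 (chr19:10717116-10739002, minus strand), Egr2 on chromosome 10 (chr10:67535475-67542188), Egr3 on chromosome 14 (chr14:70077203-70082614), Nr4a1 on chromosome 15 (chr15:101254269-101274795), Nr4a3 on chromosome 4 (chr4:48045153-48086447) and Itm2a on the X chromosome (chrX:107397099-107403376, minus strand). The 250 bases upstream of the RefSeq transcript start (GRCm38.p6) were read for 5 of the 7 genes, and not for Egr1 or Egr3. 4 of them are shown, for the motifs through which ERK and calcium signals are known to reach such genes. The CRE half-site, TGACG on either strand, is bound by CREB and ATF factors, and the CArG box by serum response factor. Both are written in capitals.
Nr4a1 (chr15:101266596-101266845, plus strand): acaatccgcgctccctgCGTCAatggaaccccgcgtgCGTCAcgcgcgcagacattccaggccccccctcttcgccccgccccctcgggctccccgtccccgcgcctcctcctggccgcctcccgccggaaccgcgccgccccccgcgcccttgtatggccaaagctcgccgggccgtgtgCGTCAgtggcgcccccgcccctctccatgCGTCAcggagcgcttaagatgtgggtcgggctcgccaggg
Nr4a3 (chr4:48045055-48045304, plus strand): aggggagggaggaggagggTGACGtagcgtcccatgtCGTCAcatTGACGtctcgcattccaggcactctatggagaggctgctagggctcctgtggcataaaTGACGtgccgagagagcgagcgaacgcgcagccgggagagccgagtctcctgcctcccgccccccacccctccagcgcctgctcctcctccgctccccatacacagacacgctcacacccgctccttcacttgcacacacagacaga
Egr2 (chr10:67537619-67537868, plus strand): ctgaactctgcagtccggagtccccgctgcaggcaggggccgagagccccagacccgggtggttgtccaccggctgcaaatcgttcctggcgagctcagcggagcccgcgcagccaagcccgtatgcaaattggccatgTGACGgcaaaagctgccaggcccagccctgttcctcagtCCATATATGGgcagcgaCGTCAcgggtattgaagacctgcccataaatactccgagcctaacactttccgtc
Cd5 (chr19:10738975-10739224, minus strand): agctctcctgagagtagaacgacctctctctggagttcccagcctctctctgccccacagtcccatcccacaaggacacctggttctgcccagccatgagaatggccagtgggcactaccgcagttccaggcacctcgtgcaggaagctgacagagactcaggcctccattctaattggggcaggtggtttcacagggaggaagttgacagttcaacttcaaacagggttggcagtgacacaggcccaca
Both Nr4a windows held 4 half-sites, starting at −233, −213, −69 and −40 in Nr4a1 and at −231, −213, −205 and −147 in Nr4a3, counted from the transcript start. Of 32851 promoter windows of this length, 17.8% held at least 1 half-site and 0.137% held 4 or more. The Egr2 window shown, 1 of 5 annotated starts of the gene, held a CArG box at −72, an element found in 1.47% of windows, with half-sites at −111 and −55. The Egr2 windows differed. That at chr10:67535249-67535498 held neither motif, and that at chr10:67537316-67537565 held a CArG box and no half-site. The Itm2a window (chrX:107403361-107403610) held 1 half-site at −16. Neither of these motifs was in the Cd5 window, nor was an AP-1 site (TGACTCA or TGAGTCA, 4.46% of windows) or the core of an NFAT site (GGAAAA on either strand, 20.4% of windows). No factor binding was measured, so these are matches of letters alone.

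Each of the 7 genes was low in resting DP cells, and in both libraries Egr1, Egr2, Egr3, Nr4a1 and Nr4a3 had their highest level in the Cd5 clusters or the Itm2a cluster. For Cd5 and Itm2a the peak follows from how these stages were picked. Cd5 was highest in cluster 5 of WT (1087 CPM, 1031 to 1146) and in cluster 9 of KO (1041 CPM, 983 to 1103), and in both libraries the intervals of clusters 5 and 9 met. Its level was then 373 and 522 CPM in the Itm2a cluster, and 256 and 387 CPM at the Ms4a4b stage. Itm2a peaked later in both libraries, at 1613 CPM (1568 to 1659) in WT and 2064 CPM (2000 to 2130) in KO in the cluster named for it. It stood at 778 and 488 CPM in the Cd5 clusters and 167 and 128 CPM in the Ms4a4b cluster. Egr1, Egr2 and Nr4a1 had their highest level in cluster 9 of WT, at 580, 94.7 and 257 CPM, and in cluster 5 of KO, at 421, 65.4 and 181 CPM. The intervals of clusters 5 and 9 met for all 3 genes in KO and for Egr2 in WT. Nr4a3 was highest in cluster 9 of WT, at 32.1 CPM on 20 UMIs, and in the Itm2a cluster of WT stood at 31.5 CPM on 96 UMIs, levels whose intervals met. In KO it was highest in the Itm2a cluster, at 24.4 CPM on 46 UMIs, and next in cluster 5, at 20.9 CPM on 48 UMIs, and these intervals met as well. Egr3 was at 38.5 and 35.5 CPM in cluster 9 and, on few UMIs, at 22.7 and 18.2 CPM in cluster 15, a cluster of B cell genes.

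**Figure D1:**
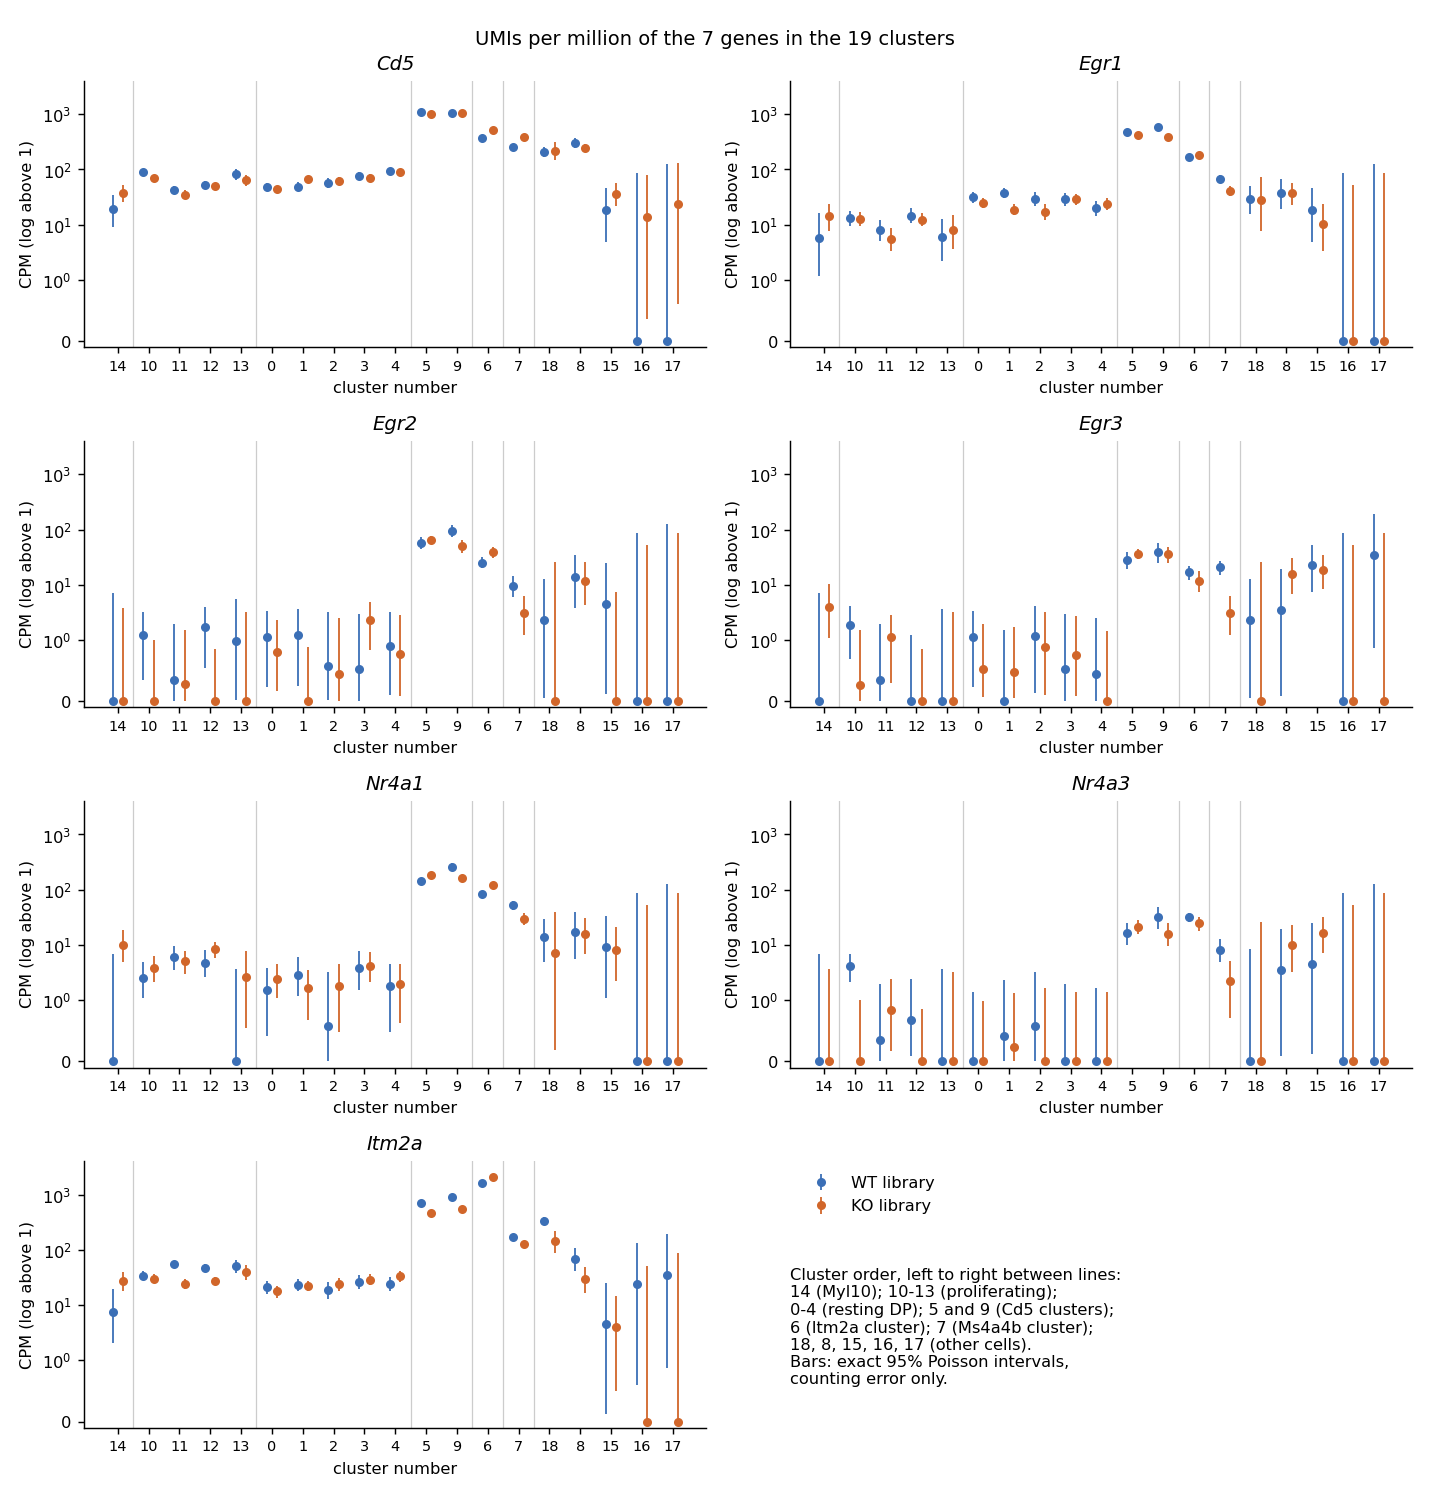
Level of each of the 7 genes in the 19 deposited clusters. The vertical axis gives CPM on a log scale above 1 and a linear scale below it, the horizontal axis gives the cluster number in the order early and dividing thymocytes, resting DP, Cd5 clusters, Itm2a cluster, Ms4a4b cluster and other cells, points are libraries and bars are exact 95% Poisson intervals. All 7 genes are higher in clusters 5 and 9 than in the resting DP clusters, and Itm2a alone is highest in cluster 6 in both libraries.

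UMIs of these genes were few in a cluster of macrophage genes, but its cells were too few to set a low limit on free RNA. Whether those cells express any of the 7 genes themselves was not tested. In cluster 16, where all 7 macrophage markers were found, Cd5 had 0 UMIs in WT and 1 in KO, Itm2a had 1 and 0, and the Egr and Nr4a genes had none among 30 WT and 49 KO cells. A count of 0 there has an interval of up to 87.2 CPM in WT and 51.7 CPM in KO, above the resting DP levels of Itm2a and of the Egr and Nr4a genes. For Cd5 the interval reached 87.2 CPM in WT and, on its 1 UMI, 78.2 CPM in KO, above its resting DP levels. This cluster therefore does not show that the resting DP levels of any of the 7 genes lie above free RNA. For Cd5, Itm2a, Egr1 and Nr4a1, the levels of the Cd5 clusters are above these bounds. A proliferating cluster, number 11, held 5.95 and 5.0 CPM of Nr4a1 and 8.05 and 5.56 CPM of Egr1. In each of the dividing clusters 10 to 13, all 7 genes were lower than in the Cd5 clusters of the same library.

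The step from resting DP cells to the Cd5 clusters was past the fold for 7 of 7 genes in WT, where 13.1% of all genes tested were that much higher and 18.5% lower, and for 7 of 7 in KO, where 12.1% were higher and 17.3% lower. Clusters were made from the expression of all genes and this stage was picked by its Cd5, which fixes the call for Cd5, so these counts are a description. Cd5 went from 64.2 to 1084 CPM in WT and from 65.2 to 1018 CPM in KO, 16.9-fold (15.5 to 18.4) and 15.6-fold (14.5 to 16.8). Egr1 went from 29.5 to 513 CPM and from 22.6 to 409 CPM, 17.4-fold (15.3 to 19.8) and 18.1-fold (16.1 to 20.4). The intervals of these folds met between the libraries for both genes. Nr4a1 had the wider range, from 2.12 to 179 CPM in WT and from 2.34 to 174 CPM in KO, 82.7-fold (55.3 to 135) and 73.4-fold (53.1 to 107). Itm2a went from 22.7 to 778 CPM in WT, 34.2-fold (29.9 to 39.3), and from 24.2 to 488 CPM in KO, 20.1-fold (18 to 22.6), and these intervals did not meet. Egr2 rested on 10 and 12 UMIs in resting DP cells, Egr3 on 7 and 8, and Nr4a3 on 2 and 1, and their log2 ratios of 6.18 and 6.22, 5.52 and 6.03, and 6.56 and 7.64 carry wide intervals.

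After the Cd5 clusters the genes parted. Of the 7, Cd5, Egr1, Egr2, Egr3 and Nr4a1 were past the fold lower in the Itm2a cluster than in the Cd5 clusters in WT (19.8% of genes were), and in KO the first 4 of these were (12.8%). Itm2a was higher there in both libraries, with a log2 ratio of 1.05 (0.97 to 1.14) in WT and 2.08 (2.00 to 2.16) in KO, beside 14.3% and 12.1% of all genes. Nr4a3 was not lower there, at 21.5 and then 31.5 CPM in WT and 19.3 and then 24.4 CPM in KO. From the Itm2a to the Ms4a4b cluster, 5 of 7 genes were lower in WT (19.4% of all genes) and 6 of 7 in KO (16.6%), and none was past the fold higher (9% and 12.7%). Cd5 stayed within the fold in both, at log2 ratios of −0.54 and −0.43. Itm2a changed most in WT, with −3.27, and Egr2, Nr4a3 and Itm2a changed most in KO, with −3.58, −3.35 and −4.0.

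Within the Cd5 clusters a UMI of any of the 5 Egr and Nr4a genes was found in 47.5% (43.2 to 51.8) of WT and 48.9% (45.4 to 52.3) of KO cells, shares that miss cells whose transcripts were not sampled. A Cd5 UMI was found in 83.9% of WT and 86.7% of KO cells, an Egr1 UMI in 41.3% and 42.6%, an Nr4a1 UMI in 18.5% and 19.5%, an Egr2 UMI in 14.8% and 13.5%, and an Itm2a UMI in 48.4% and 43.1%. A cell with an Nr4a1 UMI held a mean of 3.44 of them in WT and 3.63 in KO, and the richest cell held 18 and 22. Because depth differs between stages, every cell was also thinned to 1000 UMIs, which left out 3 WT and 5 KO cells of these clusters. At that depth a UMI of any of the 5 Egr and Nr4a genes was found in 1.81% of WT and 1.77% of KO resting DP cells, 29.7% and 29.4% of cells of the Cd5 clusters, 20.3% and 21.9% of the Itm2a cluster, and 7.85% and 6.31% of the Ms4a4b cluster. The intervals of both libraries met at each stage.

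**Figure D2:**
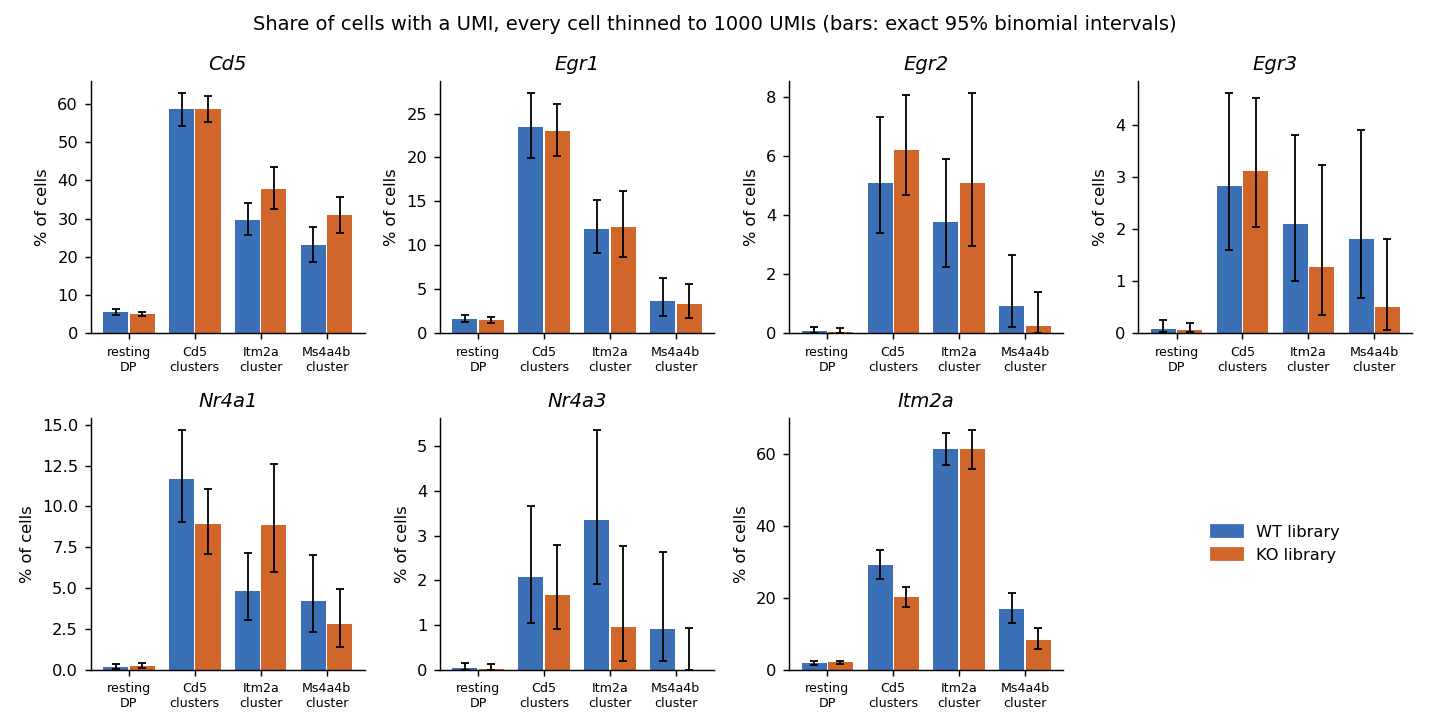
Share of cells, in percent, with at least 1 UMI of each gene after every cell was thinned to 1000 UMIs, in 4 stages of the WT and KO libraries. Bars are shares and lines are exact 95% binomial intervals. Cd5 and Egr1 are equal within their intervals in the Cd5 clusters, whereas Itm2a is found in 29.1% of WT and 20.2% of KO cells there and in 61.4% and 61.3% of cells of the Itm2a cluster.

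A UMI of Nr4a1 or Egr2 was found more often in cells with an Egr1 UMI than in those without one in the Cd5 clusters, although most cells with Egr1 had no Nr4a1 UMI and most had no Egr2 UMI. In the Cd5 clusters of WT, Nr4a1 was detected in 33.0% (26.9 to 39.7) of cells with an Egr1 UMI and in 8.28% (5.48 to 11.9) of cells without one, and in KO in 34.5% (29.6 to 39.7) and 8.26% (5.97 to 11.1). Egr2 was detected in 31.7% of cells with and 2.87% of cells without Egr1 in WT, and in 29.0% and 2.07% in KO. For both pairs the intervals of the libraries met at this stage. Among cells of the Itm2a cluster, Egr2 was again found mostly with Egr1, at 31.7% against 2.53% in WT and 37.9% against 3.49% in KO. For Nr4a1 the shares were 30.1% (22.1 to 39.0) against 9.55% (6.70 to 13.1) in WT and 24.1% (15.6 to 34.5) against 15.7% (11.3 to 21.1) in KO, so that in KO the intervals met. In the Ms4a4b cluster Egr2 was in 9 of 42 WT cells with and 3 of 290 without Egr1, and in KO in 0 of 41 and 5 of 355, so that the order was not found in KO on these few UMIs. Cells with and without an Egr1 UMI had medians of 3499 and 3257.5 UMIs in the Cd5 clusters of WT, and the part of depth in these shares was not tested. Cd5 was also higher in cells with Nr4a1, at 1393 CPM (1274 to 1520) against 1011 CPM (961 to 1062) in WT and 1414 CPM (1327 to 1504) against 915 CPM (880 to 952) in KO.

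Between the libraries, resting DP cells had similar levels of most of these genes. None of the 5 genes with enough UMIs was past the fold there, and of the 12983 genes tested 5.8% were that much higher and 2.57% lower in KO. Cd5 stood at 64.2 CPM (59.5 to 69.2) in WT and 65.2 CPM (61.2 to 69.4) in KO, and Itm2a at 22.7 and 24.2 CPM. Egr1 was lower in KO, at 29.5 CPM (26.4 to 33.0) and 22.6 CPM (20.3 to 25.1), a log2 ratio of −0.39 (−0.61 to −0.16). Egr1 was past the fold in clusters 1 and 2 of the 5, with log2 ratios of −0.99 (−1.44 to −0.53) and −0.77 (−1.42 to −0.15), but was at 28.9 CPM in both libraries in cluster 3 and at 19.7 and 24.1 CPM in cluster 4, with intervals that met. After thinning, 1.61% of WT and 1.47% of KO resting DP cells held an Egr1 UMI. Over all cells of the libraries, 1 of the 7 genes was past the fold lower in KO, Nr4a3, at 5.92 and 3.53 CPM (log2 ratio −0.74, −1.08 to −0.41), and none higher, beside 3.66% and 6.43% of all genes, and such totals also follow the share of cells at each stage.

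In the Cd5 clusters, Itm2a was the single gene of the 7 past the fold. Its 778 CPM (739 to 819) in WT and 488 CPM (465 to 512) in KO gave a log2 ratio of −0.67 (−0.78 to −0.57), in a stage where 3.56% of 9854 genes were lower in KO by that much and 7.02% higher. The difference was present in both clusters of the stage, with −0.63 (−0.76 to −0.50) in cluster 5 and −0.74 (−0.91 to −0.58) in cluster 9. Cd5 itself, at 1084 CPM (1037 to 1131) and 1018 CPM (984 to 1052), differed by −0.09 (−0.17 to −0.01), and Egr1, at 513 and 409 CPM, by −0.33 (−0.45 to −0.21). Nr4a1 was level at 179 CPM (160 to 199) and 174 CPM (161 to 189), a log2 ratio of −0.04. The values of Egr2 (69.7 and 60.5 CPM), Egr3 (31.4 and 36.0 CPM) and Nr4a3 (21.5 and 19.3 CPM) had log2 ratios of −0.21, 0.19 and −0.16 with intervals that held 0. Itm2a is X-linked, and Xist, the X-linked transcript of the inactive X chromosome, stood at 1370 and 1471 CPM in the Cd5 clusters, a log2 ratio of 0.10.

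For Nr4a1 the Cd5 clusters held differences of opposite sign. In cluster 5 it was at 141 CPM in WT and 181 CPM in KO, a log2 ratio of 0.36 (0.11 to 0.62), and in cluster 9 at 257 and 160 CPM, a log2 ratio of −0.68 (−0.99 to −0.36). Egr1 was past the fold lower in KO in cluster 9, at 580 CPM (521 to 643) in WT and 385 CPM (349 to 423) in KO. In cluster 5 Egr1 was at 481 CPM (444 to 521) and 421 CPM (395 to 449), with CPM intervals that met. In the matching deposited cluster at resolution 1.8, the log2 ratio of Egr1 was −0.18 (−0.33 to −0.03), a smaller difference of the same sign. Egr2 was lower in KO in cluster 9 and had an interval that held 0 in cluster 5, with 0.18 (−0.22 to 0.61) in cluster 5 and −0.91 (−1.46 to −0.36) in cluster 9. The same held for Nr4a3, with 0.34 (−0.41 to 1.17) and −1.01 (−2.01 to −0.02) on 20 and 18 UMIs in cluster 9. In WT, cluster 9 was past the fold above cluster 5 for 3 of 7 genes, Egr2, Nr4a1 and Nr4a3 (6.84% of all genes, and 6.83% were lower), with log2 ratios of 0.72, 0.87 and 0.98. In KO it was for 0 of 7 (5.38%, and 5.67% lower), and their log2 ratios were −0.37, −0.17 and −0.37. Cd5 was equal in clusters 5 and 9, at −0.02 in WT and 0.05 in KO. Whether the contrast of the clusters differs between the libraries was not tested.

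**Figure D3:**
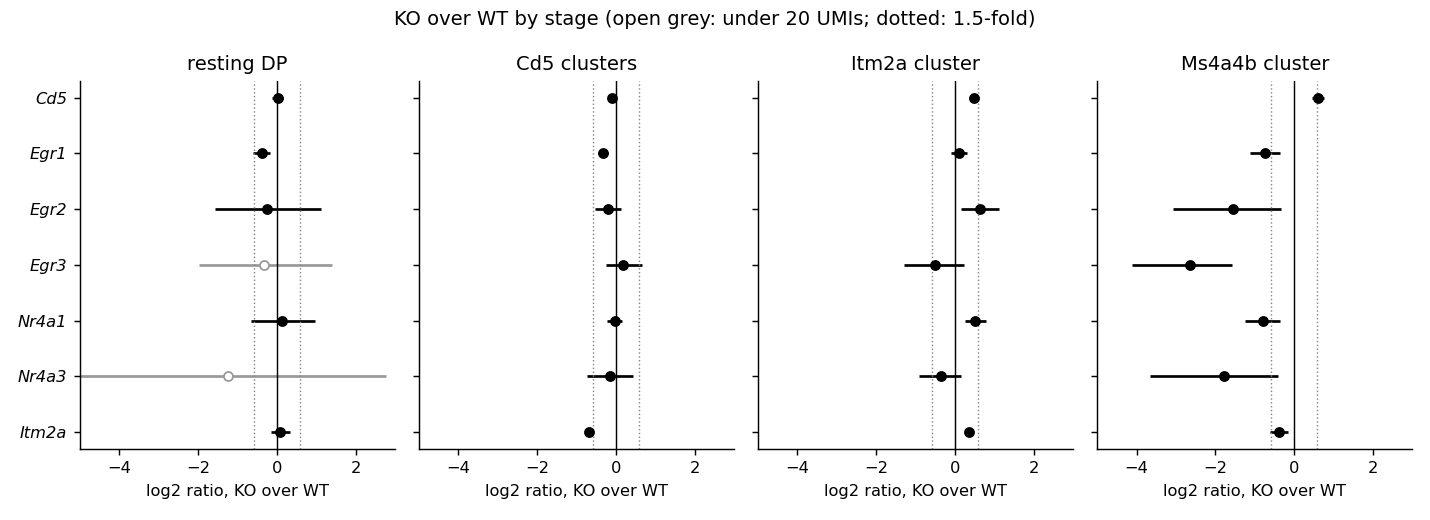
Log2 ratio, KO over WT, for each of the 7 genes in 4 stages. Points are ratios of CPM after 0.5 UMI was added to each sum, lines are exact 95% conditional binomial intervals (that of Nr4a3 in resting DP cells runs past the axis), open grey points have under 20 UMIs and dotted lines mark 1.5-fold. Itm2a lies left of 0 in the Cd5 clusters and right of 0 in the Itm2a cluster. Cd5 alone lies right of 0 in the Ms4a4b cluster.

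At the next stage, the Itm2a cluster, Cd5, Nr4a1, Egr2 and Itm2a were higher in KO with intervals above 0. Egr2 alone of the 7 was past the fold, beside 11.3% of 9790 genes that were that much higher and 4.95% lower, although in cells thinned to 1000 UMIs the log2 ratio of Nr4a1 was 1.21, past the fold. Egr2 was at 25.2 CPM (19.9 to 31.5) in WT and 39.3 CPM (30.9 to 49.4) in KO, a log2 ratio of 0.64 (0.16 to 1.12) on 77 and 74 UMIs. Cd5 was at 373 CPM (352 to 396) and 522 CPM (490 to 556), a log2 ratio of 0.48 (0.36 to 0.61), and Nr4a1 at 84.5 CPM (74.5 to 95.5) and 121 CPM (105 to 137), a log2 ratio of 0.51 (0.25 to 0.78). Itm2a itself, at 1613 and 2064 CPM, differed by 0.36 (0.29 to 0.42), the opposite sign from the stage before. Egr1 (167 and 180 CPM), Egr3 (16.7 and 11.7 CPM) and Nr4a3 (31.5 and 24.4 CPM) had log2 ratios of 0.11, −0.50 and −0.36 with intervals that held 0. The median of all genes was 0.16 here. Relative to it Egr2 stood at 0.48, Nr4a1 at 0.36, Cd5 at 0.33 and Itm2a at 0.20, and none of these was past the fold. Egr3, at −0.50 before this scaling, was past the fold lower relative to that median. After thinning, Itm2a was in 61.4% and 61.3% of cells, Cd5 in 29.6% and 37.8%, and Nr4a1 in 4.80% and 8.89%. The cluster held 7.83% of WT and 4.18% of KO cells, and Ms4a4b, the mark of the next stage, was at 323 and 137 CPM in it. The part of these differences in the values of the 7 genes was not tested.

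The deposited clusters at a finer resolution, 1.8, divided these cells. Finer cluster 12, with 173 WT and 186 KO cells and little Ms4a4b (55.4 and 45.4 CPM), had Itm2a at 2476 CPM (2371 to 2584) and 2322 CPM (2229 to 2418). These intervals met, and the log2 ratio of Itm2a was −0.09 (−0.18 to −0.007). Nr4a1 was at 24.7 CPM (15.3 to 37.8) and 66.2 CPM (51.3 to 84.0) there, a log2 ratio of 1.40 (0.69 to 2.20). Cd5 was at 401 CPM (359 to 446) and 514 CPM (470 to 560). Cd5 and Nr4a1 were thus higher in KO in these cells while Itm2a was not. Finer cluster 10, with 325 WT and 136 KO cells, held more Ms4a4b (467 and 292 CPM), and there Itm2a was at 1285 CPM (1239 to 1333) and 1861 CPM (1771 to 1953), Cd5 at 355 CPM (331 to 381) and 525 CPM (478 to 575), and Nr4a1 at 74.2 CPM (63.4 to 86.3) and 126 CPM (104 to 152). All 3 were higher in KO.

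Of the 6 finer clusters that held most cells after the resting DP stage, a small one had the highest Nr4a1 and Nr4a3. Finer cluster 20 had 20 WT and 23 KO cells, 0.327% and 0.304% of the libraries, and 40 of the 43 came from the Itm2a cluster. Over both libraries Nr4a1 was at 630 CPM (536 to 735) against 176 CPM in the Cd5 clusters, and Nr4a3 at 258 CPM (200 to 329) against 20.1 CPM. Egr1 was at 50.9 CPM (27.1 to 87.0) against 447 CPM and Cd5 at 857 CPM (747 to 978) against 1042 CPM. The Nr4a genes were thus above and Egr1 below their levels in the Cd5 clusters. The 10 leading genes of this cluster were Tnfrsf9 (4-1BB), Nr4a3, Tagap, Spry1, Gadd45b, Nr4a2, Lad1, Sult2b1, Trib1 and Nr4a1, and these were read from the same cells that were clustered. The intervals of the libraries met for Nr4a1, Nr4a3 and Cd5, with Nr4a1 at 658 CPM (527 to 811) in WT and 600 CPM (471 to 754) in KO, Nr4a3 at 257 and 260 CPM and Cd5 at 809 and 909 CPM. The 19 WT and 21 KO cells of it that lay in the Itm2a cluster held 73 of 258 and 72 of 227 Nr4a1 UMIs of that cluster, and 32 of 96 and 32 of 46 Nr4a3 UMIs. Without them the log2 ratio of Nr4a1 was 0.47 (0.15 to 0.79), and that of Nr4a3 went from −0.36 to −1.43 (−2.42 to −0.62).

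**Figure D4:**
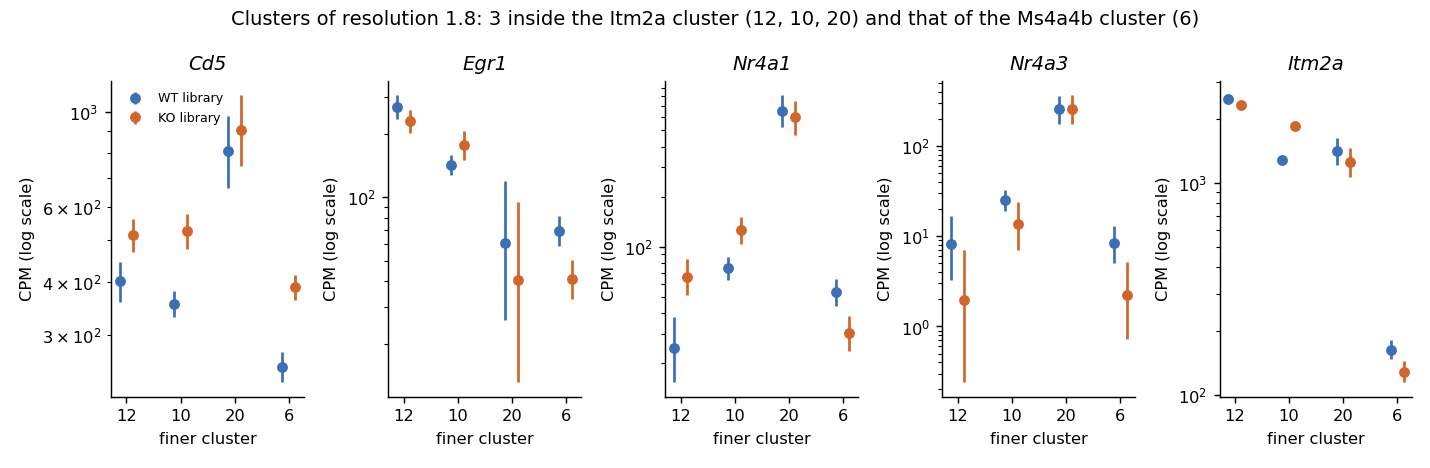
Level of 5 of the genes in the deposited clusters of resolution 1.8, of which 12, 10 and 20 lie mostly inside the Itm2a cluster and 6 is that of the Ms4a4b cluster. The vertical axis gives CPM on a log scale, points are libraries and lines are exact 95% Poisson intervals. Nr4a1 and Nr4a3 are highest in cluster 20 in both libraries, where Egr1 is near its lowest, and Itm2a differs between libraries in cluster 10, at 1285 and 1861 CPM.

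In the Ms4a4b cluster Cd5 was higher and the other 6 genes were lower in KO. Cd5 was at 256 CPM (236 to 278) in WT and 387 CPM (362 to 414) in KO, a log2 ratio of 0.60 (0.44 to 0.75) past the fold with 21% of 9586 genes. The 3 Egr genes and both Nr4a genes, 5 of 7, were past the fold lower, beside 5.55% of all genes. Egr1 was at 67.8 CPM (57.7 to 79.3) and 40.6 CPM (32.7 to 49.8), a log2 ratio of −0.74 (−1.13 to −0.36). Nr4a1 was at 52.0 CPM (43.1 to 62.1) and 30.0 CPM (23.3 to 38.0), a log2 ratio of −0.79 (−1.24 to −0.35), on 121 and 68 UMIs. Egr3 had the largest difference, with 48 WT and 7 KO UMIs, 20.6 CPM (15.2 to 27.3) and 3.09 CPM (1.24 to 6.36), a log2 ratio of −2.65 (−4.13 to −1.59). Egr2 (22 and 7 UMIs, −1.55) and Nr4a3 (19 and 5 UMIs, −1.79) rested on few counts. Itm2a was at 167 CPM (151 to 185) and 128 CPM (114 to 144), a log2 ratio of −0.38 (−0.61 to −0.16), inside the fold. The median of all genes was 0.24 at this stage, and relative to it Cd5 stood at 0.36, within the fold, and Itm2a at −0.62, past it.

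For Nr4a1 the UMIs per positive cell differed between the libraries. It was detected in 27 of 332 WT cells (8.13%) and 33 of 396 KO cells (8.33%), with a mean of 4.48 and 2.06 UMIs in those cells. The WT cells were deeper, with medians of 6737.5 and 5032 UMIs, and after thinning the shares were 4.23% (2.33 to 6.99) and 2.78% (1.39 to 4.92), with intervals that met and that leave room for a difference in the number of cells. The richest cell held 21 UMIs in WT and 12 in KO. An Egr3 UMI was found in 21 WT and 5 KO cells. After thinning its shares were 1.81% (0.668 to 3.90) in WT and 0.505% (0.0612 to 1.81) in KO, with intervals that met. The thinned shares of Egr1 were 3.63% (1.89 to 6.25) in WT and 3.28% (1.76 to 5.55) in KO, and these intervals met as well.

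A few WT cells with genes of regulatory T cells held a large part of the Nr4a UMIs of this cluster. Foxp3, the transcription factor of regulatory T cells, had 58 UMIs in 20 WT cells and none in 396 KO cells. A count of 0 allows a share of cells with a Foxp3 UMI of up to 0.758% (3 counts of the total) and sets no limit on cells that express the gene. Il2ra, a chain of the IL-2 receptor, had 30 and 13 UMIs, and Ctla4, an inhibitory receptor, 20 and 1. The 33 WT cells with a UMI of any of these 3 genes, chosen after their values were seen, held 42 of 121 Nr4a1 UMIs and 13 of 19 Nr4a3 UMIs, but 11 of 158 Egr1, 8 of 48 Egr3 and 5 of 22 Egr2 UMIs. The 9 such KO cells held 1 of 68 Nr4a1 UMIs. Without these cells the log2 ratio of Nr4a1 was −0.28 (−0.77 to 0.21) and that of Nr4a3 −0.28 (−2.36 to 1.67), neither past the fold, whereas Egr1 was at −0.72 (−1.11 to −0.33), Egr2 at −1.71 (−3.60 to −0.31), Egr3 at −2.48 (−3.96 to −1.38) and Cd5 at 0.70 (0.54 to 0.86). Of the Itm2a cluster, 24 WT and 5 KO cells held such a UMI, and the log2 ratio of Nr4a1 without them was 0.87 (0.59 to 1.16) in place of 0.51.

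**Figure D5:**
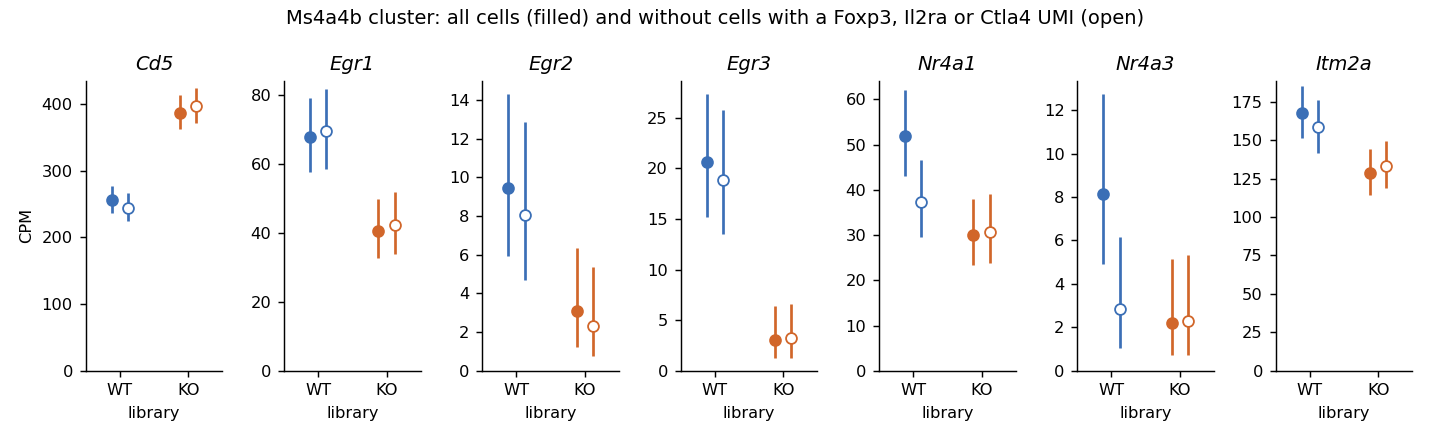
Level of the 7 genes in the Ms4a4b cluster in CPM, for all cells (filled points) and without cells that hold a Foxp3, Il2ra or Ctla4 UMI (open points), with exact 95% Poisson intervals. The WT values of Nr4a1 and Nr4a3 move toward those of KO when the cells are left out, and the distance between the libraries remains for Egr1, Egr2, Egr3 and Cd5.

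Other genes moved with this cluster as well. The summed level of 7 mature SP markers was 3393 CPM in WT and 5043 CPM in KO with all 7 found in both, and Rag1, a gene of earlier cells, was at 88.9 and 184 CPM, a log2 ratio of 1.05 (0.81 to 1.30). Markers of DN and gamma-delta thymocytes, 8 found of 11, summed to 250 and 411 CPM, those of macrophages, 4 and 6 found of 7, to 6.87 and 38.8 CPM, and those of B cells, 4 and 5 found of 6, to 221 and 225 CPM. Their part in the differences of the 7 genes was not tested.

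Cells of both SP clusters were sorted by their coreceptor UMIs, since CD4 cells are known for stronger selecting signals than CD8 cells. For the Itm2a cluster, Cd5 was at 438 CPM (395 to 484) in WT cells with Cd4 UMIs alone and 249 CPM (218 to 284) in those with Cd8a or Cd8b1 UMIs alone, and at 703 CPM (630 to 781) and 372 CPM (311 to 441) in KO. Itm2a had the same order, at 1937 and 649 CPM in WT and 3002 and 1315 CPM in KO. Both genes were higher in KO in either sort of cell. In cells with UMIs of both coreceptors, 133 of WT and 134 of KO, Cd5 was higher in KO, at 328 CPM (290 to 371) and 429 CPM (386 to 477), but Itm2a was lower in KO, at 2103 CPM (2003 to 2206) and 1792 CPM (1702 to 1887). In the Ms4a4b cluster, Cd5 was at 444 CPM (387 to 506) in Cd4 cells and 154 CPM (128 to 183) in Cd8 cells of WT, and at 526 CPM (460 to 598) and 318 CPM (272 to 369) in KO, so that the intervals of the libraries were apart in Cd8 cells and met in Cd4 cells. Egr1 went the other way, at 179 CPM (143 to 220) and 59.4 CPM (38.8 to 87.1) in Cd4 cells of WT and KO and at 46.5 CPM (32.9 to 63.8) and 37.0 CPM (22.6 to 57.1) in Cd8 cells. The Egr1 intervals of the libraries were thus apart in Cd4 cells and met in Cd8 cells. They also met in cells with both coreceptors (38.0 CPM in WT and 45.1 CPM in KO) and with neither (22.6 and 21.4 CPM). The WT Cd4 cells held 89 of the 158 Egr1 UMIs of WT in this cluster. The Cd4 sort held 76 and 90 cells and the Cd8 sort 106 and 97, and a cell without a Cd8 UMI can still carry the coreceptor. The Cd8 sort had medians of 7182.5 UMIs in WT and 4737 in KO. Zbtb7b, a marker of CD4 SP cells, was at 12.2 CPM (5.86 to 22.5) and 25.9 CPM (14.2 to 43.4) in it. In the Cd4 sort Zbtb7b was at 38.1 and 77.7 CPM. In the Itm2a cluster it was at 8.64 and 25.4 CPM in Cd8 cells and 79.8 and 75.4 CPM in Cd4 cells. The part of CD4 cells in the Cd8 sort was not tested.

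Of 25 other genes that TCR signals induce, 18 of 22 tested in WT and 20 of 24 in KO were past the fold higher in the Cd5 clusters than in resting DP cells, and none was lower. Of 17 immediate early genes that tissue dissociation also induces, 6 of 13 and 8 of 13 were higher and 2 and 1 lower. Over all genes 13.1% and 12.1% were higher and 18.5% and 17.3% lower. Between libraries, 1 TCR-induced gene was higher in resting DP cells (Tnfrsf4, the costimulatory receptor OX40, 1.14) and 1 lower (Irf4, a transcription factor, −0.63) of 22 tested, beside 5.8% and 2.57% of all genes. In the Cd5 clusters 0 were higher and 2 of 23 lower, the feedback inhibitors Dusp6 (−0.59) and Spry1 (−1.30), beside 7.02% and 3.56% of all genes. At the Itm2a stage 2 of 25 were higher, the receptors Cd6 (0.65) and Pdcd1 (0.59), and 2 lower, Tnfrsf4 (−1.64) and Icos (−0.74), beside 11.3% and 4.95%. In the Ms4a4b cluster 0 of 23 were higher and 5 lower, beside 21% and 5.55% of all genes. The 5 were Irf4 (−1.86), Icos (−1.85), Tnfrsf4 (−1.77), Tnfrsf9 (−1.63) and Ikzf2 (−1.09). Genes also used by regulatory T cells are among them, such as Icos, Tnfrsf4, Tnfrsf9 and Ikzf2, and none of the 5 was set apart from such cells by a test. The medians of the list over the 4 stages were −0.02, 0.03, 0.38 and −0.10, beside 0.05, 0.04, 0.16 and 0.24 for all genes. The members with most UMIs, Id3, Slfn2 and Cd2, were within the fold at each of these stages.

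In the dissociation-responsive list, 1 of 13 genes tested was past the fold higher in KO and 0 lower in resting DP cells (5.8% and 2.57% of all genes). In the Cd5 clusters 1 of 14 was higher and 1 lower (7.02% and 3.56%). At the Itm2a stage 3 of 13 were higher and 1 lower (11.3% and 4.95%). In the Ms4a4b cluster 2 of 13 were higher and 2 lower (21% and 5.55%). The medians of the list were −0.03, −0.11, 0.22 and 0.28, beside 0.05, 0.04, 0.16 and 0.24 for all genes. Klf6, a zinc finger factor, was past the fold higher in KO at all 4 stages, with log2 ratios of 0.75, 1.15, 1.40 and 2.48. Jun and Fos, the subunits of AP-1, were higher in the Itm2a cluster (1.62 and 1.13), whereas Jun was higher (1.10) and Fos lower (−1.45) in the Ms4a4b cluster. The other members past the fold were Fosb in the Cd5 clusters (−0.72), Jund in the Itm2a cluster (−0.63) and Dusp1 in the Ms4a4b cluster (−0.71). Of the 3 members with most UMIs, Hsp90aa1, Btg2 and Jund, only Jund passed the fold, and only in the Itm2a cluster. These genes respond to handling of cells as Egr1 and Nr4a1 do, and their part in the differences of the reporters was not tested.

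Over the 19 clusters, both libraries summed, the levels of the 7 genes followed each other, with Pearson r of log2(CPM + 1) from 0.50 for Egr3 with Itm2a to 0.93 for Cd5 with Egr1. All points share the same libraries, and clusters differ in depth and size, so these values describe the pattern alone. Among 10697 genes with at least 200 UMIs, the profile closest to Nr4a1 was that of Nab2, a corepressor of Egr factors (r = 0.95), followed by Gm14718 (0.92) and Tox2 (0.91). Nab2 was also among the 3 closest to Cd5 (0.93, with Itih5 at 0.94 and Xylt2 at 0.93) and to Egr2 (0.92, with Gm14718 at 0.95 and Ccr4, a chemokine receptor, at 0.95). Egr1 was closest to St3gal2 (0.96), Xylt2 (0.94) and Keap1 (0.94), and Itm2a to Cd40lg, the CD40 ligand of CD4 cells (0.92), Itih5 (0.91) and Izumo1r (0.91). Nr4a3 was closest to Gm14718 (0.89), Mapk11 (0.88) and Pdcd1lg2 (0.88), and Egr3 to Trib1 (0.83), Gpr183 (0.79) and Pdcd1lg2 (0.79), the lowest values among the 7.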

How the data were processed

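Single-cell 3′ libraries of whole thymus were made by the authors from 5 pooled WT and 5 pooled KO mice. According to the submitters' processing notes, the reads were aligned and counted with Cell Ranger 3.0.2 and STAR on mm10 and the cells were clustered in Seurat. Per the study's methods, the authors kept cells that had at least 200 and at most 6000 detected genes and no more than 50000 reads. The authors deposited an unnormalized matrix of UMI counts and a table of cells with cluster numbers at several resolutions, of which 1.5 was used here and 1.8 where stated. The mitochondrial percent deposited by the authors was 0 in every cell and was not used. Cell names carry Cdc45 in place of Cdc42, and the library was read from the WT or KO in the name. Whether doublets had been removed is not given in the sources used here, and the 6% of cells with the highest Scrublet scores were left out as an alternative.

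UMIs were summed per gene, stage and library and divided by the total (CPM). Log2 ratios were taken after adding 0.5 UMI to both sums, with exact conditional binomial intervals. CPM had Poisson and shares of cells Clopper-Pearson intervals, all at 95%. No statistical test was made. A gene was called past the fold at 1.5-fold with at least 20 UMIs. Named genes were the 7 members, up to 4 genes per list and stage past the fold and the 3 with most UMIs, the 3 genes with the closest profile to each member, and stage markers. All past-fold genes of the lists were named where there were 5. The members and lists were chosen with earlier results of these data known. The scripts used Python 3.11.15, numpy 2.4.6, scipy 1.17.1, pandas 2.3.3 and scanpy 1.11.5, with TMM factors from edgeR 4.0.16 and size factors from DESeq2 1.42.0 as alternatives, and were tested on simulated data.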

Additional observations from a re-analysis of the deposited data

Results flagged for a closer look

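Some of the 7 genes had KO over WT log2 ratios of opposite sign at different stages, with intervals that did not hold 0 on either side. The difference between stages was not tested, since each stage of a library is 1 sample. Cd5 stood at −0.090 in the Cd5 clusters, 0.48 in the Itm2a cluster and, last, 0.60 in the Ms4a4b cluster. From the Itm2a to the Ms4a4b cluster Egr2 went from 0.64 to −1.55 and Nr4a1 from 0.51 to −0.79. Without cells with a Foxp3, Il2ra or Ctla4 UMI, Nr4a1 in the Ms4a4b cluster was at −0.28 (−0.77 to 0.21), an interval that held 0. Itm2a was at −0.67 in the Cd5 clusters, 0.36 in its own cluster and −0.38 in that of Ms4a4b.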

How the results depend on the processing

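No paired analysis was possible because each genotype has 1 library, and for the same reason no replicate could be left out. Over all alternatives run, 556 of 588 values of single genes moved by less than their counting interval, 32 moved by more, and 0 changed sign with a call. The number of genes past the fold rose with a minimum of 5 UMIs and again with none, from 1087 to 2725 and 5345 in resting DP cells, from 1043 to 2593 and 6233 in the Cd5 clusters, from 1591 to 3236 and 6852 in the Itm2a cluster, and from 2544 to 4319 and 7878 in the Ms4a4b cluster. The median log2 ratio of the 7 genes in the Itm2a cluster, 0.36, was 0.24 when ribosomal protein and mitochondrial genes were kept out of the totals, 0.20 with TMM factors, 0.20 with DESeq2 size factors, 0.21 when counts per 10000 UMIs were averaged over cells and 0.25 in cells thinned to 1000 UMIs. That of the Ms4a4b cluster, −0.79, was −1.32 when averaged over cells and −0.28 without cells with a Foxp3, Il2ra or Ctla4 UMI, an alternative chosen after seeing the data. The cause of these moves was not tested. Cd5 in the Ms4a4b cluster was no longer past the fold under these 3 scalings (0.42 with the reduced totals, 0.35 with TMM and 0.36 with DESeq2), and Itm2a there became so (−0.63 with TMM, −0.62 with DESeq2 and −1.02 after thinning). Itm2a in the Itm2a cluster was at 0.08 and Nr4a1 at 1.21 after thinning. Counts under 20 UMIs limit Egr2, Egr3 and Nr4a3 in resting DP cells and in the Ms4a4b cluster of KO.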
